A study of Mus musculus with 4 samples.

Results

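AP-2 transcription factors were described in hindlimb bud cells of FVB mouse embryos at embryonic day 11.5. The family was taken as the rows of the count table whose symbol is Tfap2a, Tfap2b, Tfap2c, Tfap2d or Tfap2e, and all 5 symbols were present among 25239 genes. All embryos were labelled wild-type and carried a reporter, H11 hsp68-hZRS(404G>A)-mCherry, in which the human ZRS with the 404G>A change and the hsp68 promoter drive the red fluorescent protein mCherry from the H11 locus. The ZRS is the distant limb enhancer of Shh. One population was anterior mCherry+ cells and the other was central mCherry- cells, each dissected, dissociated and sorted, with 2 libraries apiece. The groups differ in limb region and in reporter gate at once, so the share of each in a difference cannot be told apart. The labels do not say whether the libraries came from separate embryos or pools, so p-values measure the spread between these libraries, which may be technical.

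AP-2 proteins bind GC-rich DNA as dimers through a basic region and a helix-span-helix domain at the carboxyl end. They are known as regulators of surface ectoderm, neural crest, face and limb development. Loss of Tfap2a in the mouse disturbs the face, the body wall and the forelimb skeleton, and variants of human TFAP2B cause Char syndrome, in which the face, the ductus arteriosus and the hand are affected. Tfap2c is best known from trophoblast, germ cells and early ectoderm, Tfap2d from the midbrain and retina, and Tfap2e from the olfactory system.

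Tfap2a lies on chromosome 13 (chr13:40715302-40738376, minus strand), Tfap2c on chromosome 2 (chr2:172549593-172558622, plus strand) and Tfap2e on chromosome 4 (chr4:126716006-126736240, minus strand) in GENCODE M21 on GRCm38, the assembly also called mm10. Tfap2b (chr1:19208914-19238576) and Tfap2d (chr1:19103022-19166346) are neighbours on the plus strand of chromosome 1, 42567 bases apart. RefSeq promoter windows on GRCm38.p6 were at hand for 4 of the 5 genes, all except Tfap2c. The 250 bases before an annotated start of Tfap2a (window chr13:40734921-40735170, minus strand) and of Tfap2b (window chr1:19211804-19212053, plus strand) are shown because these genes had nearly the same pattern over the libraries. Both are alternative starts inside the longest gene model, and neither window overlaps an exon of its gene in GENCODE M21. The Tfap2a window lies over one end of the antisense gene model Gm26688. Sequences read 5′ to 3′ on the strand of the gene, and capitals mark a match to the AP-2 half-site pair GCCNNNGGC or GCCNNNNGGC, each of which reads the same on both strands.
Tfap2a: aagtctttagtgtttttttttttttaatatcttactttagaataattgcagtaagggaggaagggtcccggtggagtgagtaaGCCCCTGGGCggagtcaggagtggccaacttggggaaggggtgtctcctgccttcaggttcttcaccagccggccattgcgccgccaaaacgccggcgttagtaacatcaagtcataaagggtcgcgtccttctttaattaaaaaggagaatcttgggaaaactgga
Tfap2b: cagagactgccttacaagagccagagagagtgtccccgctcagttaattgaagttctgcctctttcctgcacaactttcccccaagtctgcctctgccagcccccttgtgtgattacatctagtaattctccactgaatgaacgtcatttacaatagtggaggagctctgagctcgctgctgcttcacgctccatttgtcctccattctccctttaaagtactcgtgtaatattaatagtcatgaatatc
The Tfap2a window shown held 1 match, to GCCNNNNGGC, and the Tfap2b window held none. Another RefSeq window of Tfap2a (chr13:40733796-40734045, minus strand) held no match and is not shown, since 180 of its 250 bases lie in exons. Among 32851 RefSeq windows of this length, 13.7% held GCCNNNGGC, 12.3% held GCCNNNNGGC and 23.0% held at least one of them. A match is a description of the letters and not a measured binding site.

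The libraries held 30080925 to 33257383 counts. Of 14610 genes that passed the filter on low counts, 3351 (22.9%) were called between the populations by edgeR's quasi-likelihood test at a Benjamini-Hochberg adjusted p-value under 0.05, with 1559 (10.7%) higher and 1792 (12.3%) lower in anterior cells. Without anterior replicate 2 the count was 2009, of which 809 were higher, and without anterior replicate 1 the genes called higher numbered 1032. The groups did not overlap for 63.5% of the tested genes, and the median log2 fold change over them was -0.009. Levels below are CPM (the counts of a gene relative to the total of its library) after TMM scaling, which corrects library totals for composition, and fold changes are anterior over central.

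Tfap2a, Tfap2b and Tfap2c were all higher in anterior cells, by 3.18-fold, 3.41-fold and 6.60-fold. Tfap2d was not detected and Tfap2e was close to the limit of detection. Of the 5 family members 3 were tested, and all 3 were called higher, where 10.7% of tested genes were, a share that rests on both anterior libraries (809 of 15291 genes without replicate 2 and 1032 of 15130 without replicate 1). All 3 were also called higher without either library. In bulk RNA, more cells expressing a gene and more transcript per cell cannot be told apart.

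Tfap2b, encoding AP-2 beta, had 5030 and 3654 counts in anterior cells and 1291 and 1259 in central cells, or 151, 125, 41.9 and 38.9 CPM. Each anterior library lay far above both central libraries, and the central pair were close to each other. The means were 138 ± 18.6 and 40.4 ± 2.14 CPM (SD, n = 2 each), with a log2 fold change of 1.77 (SE 0.10, adjusted p = 9.16e-06 by edgeR). Of the tested genes, 208 had a larger log2 fold change.

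Tfap2a, encoding AP-2 alpha, had 2027 and 1419 counts in anterior cells and 556 and 529 in central cells, or 60.8, 48.4, 18.1 and 16.3 CPM. As for Tfap2b, anterior replicate 1 was the higher of the anterior pair and the groups did not overlap. The means were 54.6 ± 8.77 and 17.2 ± 1.21 CPM (SD, n = 2 each), with a log2 fold change of 1.67 (SE 0.13, adjusted p = 4.40e-05 by edgeR). An antisense gene, Gm26688, overlaps exons of Tfap2a on the opposite strand and had 68, 66, 24 and 27 counts. Whether the counting used strand is not given in the sources used here, so reads of the overlapping part cannot be assigned with certainty. Gm26688 was far less abundant than Tfap2a in each library and was also higher in anterior cells (2.14 ± 0.15 against 0.81 ± 0.04 CPM, SD, n = 2 each, edgeR log2 fold change 1.40 ± 0.41 SE, adjusted p = 0.0395).

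Tfap2c, encoding AP-2 gamma, had 1725 and 1930 counts in anterior cells and 219 and 345 in central cells, or 51.7, 65.8, 7.11 and 10.7 CPM. Here replicate 2 was the higher library in both populations, unlike in Tfap2a and Tfap2b. The means were 58.8 ± 9.95 and 8.89 ± 2.51 CPM (SD, n = 2 each), with a log2 fold change of 2.72 (SE 0.19, adjusted p = 2.51e-05 by edgeR). Of the tested genes, 100 had a larger log2 fold change.

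Tfap2d was listed at 0 counts in all 4 libraries, where 3 counts, the limit that a count of 0 allows, correspond to 0.090 to 0.102 CPM. That limit takes counts as independent and would be higher if both mates of a read pair were counted. Tfap2e, encoding AP-2 epsilon, had 2 and 2 counts in anterior cells, 6 and 10 in central cells, and failed the filter. Halved counts, which allow for both mates of a read pair having been counted, were compared relative to library totals without TMM scaling. On these, the central level of Tfap2e was 4.05 times the anterior level, with a 95% exact interval of 0.809 to 39.2. That interval includes no difference and covers counting error only.

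**Figure D1:**
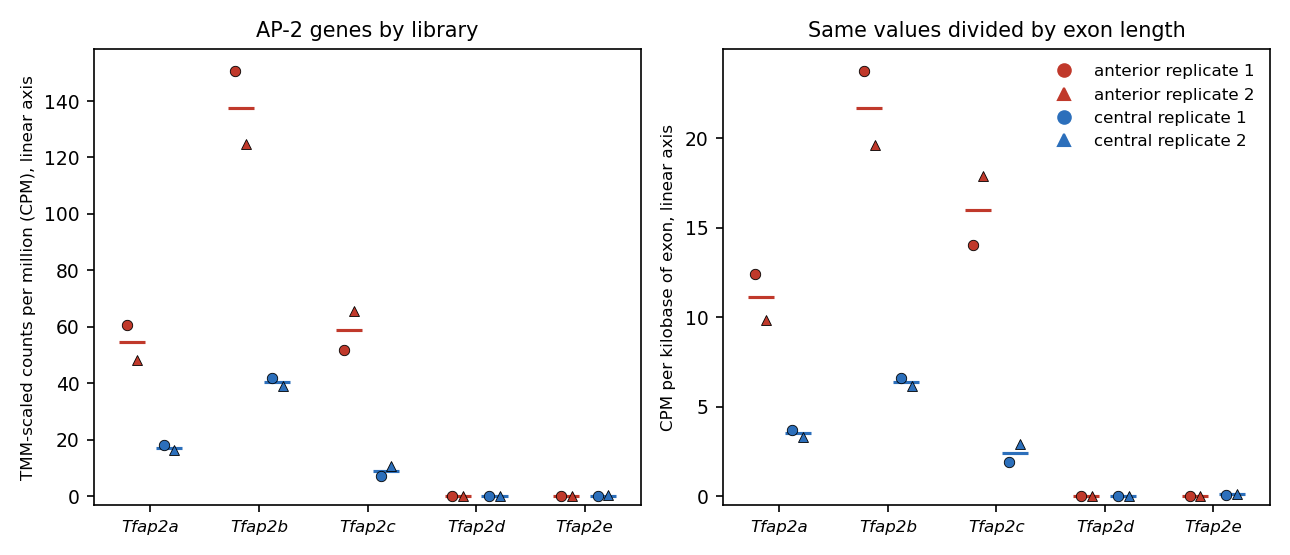
Level of each AP-2 gene in each library, as TMM-scaled CPM (left) and as CPM per kilobase of exon (right), both on linear axes; points are libraries and bars are means of the 2 libraries of a group. Tfap2a, Tfap2b and Tfap2c sit higher in both anterior libraries than in both central ones, while Tfap2d and Tfap2e lie at or near 0.

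Levels of different genes were compared after division by the exon length of the gene model, which is 4903 bases for Tfap2a, 6338 for Tfap2b and 3679 for Tfap2c. Tfap2b had the highest level per kilobase in every library, at 21.7 ± 2.93 CPM per kilobase in anterior and 6.38 ± 0.34 in central cells (SD, n = 2 each). The order of the other members differed between the populations. In anterior cells Tfap2c, at 14.1 and 17.9 CPM per kilobase, lay above Tfap2a, at 12.4 and 9.87. In central cells Tfap2c, at 1.93 and 2.90 CPM per kilobase, lay below Tfap2a, at 3.68 and 3.33. On this scale Tfap2c made up 28.0% and 37.7% of the family's summed level in anterior libraries, against 15.7% and 23.1% in central ones, and Tfap2b made up 41.4% to 53.7% over all 4. In anterior replicate 1 the order of Tfap2c and Tfap2a rests on the exon lengths. Before division Tfap2c was the lower there, at 51.7 against 60.8 CPM. The order and the shares assume that the full set of annotated exons is used in both populations, which was not tested.

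The ratio of Tfap2b to Tfap2a counts varied less over the libraries than that of Tfap2c to Tfap2a. Tfap2b had 2.48 and 2.58 times the counts of Tfap2a in anterior cells, and 2.32 and 2.38 times in central cells, without overlap. Its mean log2 ratio differed by 0.105 between the populations. Of the counts of both genes, halved as above, Tfap2b held 71.3% (95% exact binomial interval 69.7% to 72.8%) and 72.0% (70.2% to 73.8%) in anterior cells, and 69.9% (66.8% to 72.9%) and 70.4% (67.3% to 73.4%) in central cells. These intervals cover counting error only. The counts of Tfap2c relative to Tfap2a were 0.851 and 1.36 in anterior cells and 0.394 and 0.652 in central cells, without overlap. The mean log2 ratio of Tfap2c to Tfap2a differed by 1.09 between the populations. For both ratios the two-sided exact permutation p was 0.333, the smallest that 2 libraries against 2 can give.

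Genes of most similar pattern were sought among 12825 other tested genes with a mean of at least 1 CPM, by Euclidean distance between log2(CPM + 0.5) values over the 4 libraries after centring each gene on its own mean. The nearest gene to Tfap2a was Tfap2b and the nearest to Tfap2b was Tfap2a, at a distance of 0.128 log2 units, whereas Tfap2c lay 1.25 from Tfap2a and 1.12 from Tfap2b. The transcription factor gene Nfia came next to both, at 0.129 from Tfap2a and 0.139 from Tfap2b, with 4109 and 3103 counts in anterior and 1192 and 1038 in central cells. Tfap2a was further followed by Pcsk6, encoding a proprotein convertase that processes TGF-beta family ligands, then Kctd6 and Fgf13, and Tfap2b by Kctd6, Fmo2 and Dync1i1. Dync1i1 encodes a dynein intermediate chain. Fmo2 rested on few central counts (12 and 16), with an edgeR log2 fold change of 2.67 (SE 0.44) against 1.77 for Tfap2b.

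The genes nearest to Tfap2c were a separate set, with Kcnn4 at 0.178, Epha2 at 0.185, Grik1 at 0.397, Paqr9 at 0.403 and Ajap1 at 0.408. Epha2, an ephrin receptor gene, had 2577 and 2830 counts in anterior cells and 389 and 549 in central cells, with replicate 2 the higher in both populations as for Tfap2c. Kcnn4, a potassium channel gene, rested on few central counts (0 and 12), with an edgeR log2 fold change of 4.3 against 2.72 for Tfap2c. With 4 libraries in 2 groups, likeness of this kind measures little beyond the size of the group difference and the replicate spread.

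**Figure D2:**
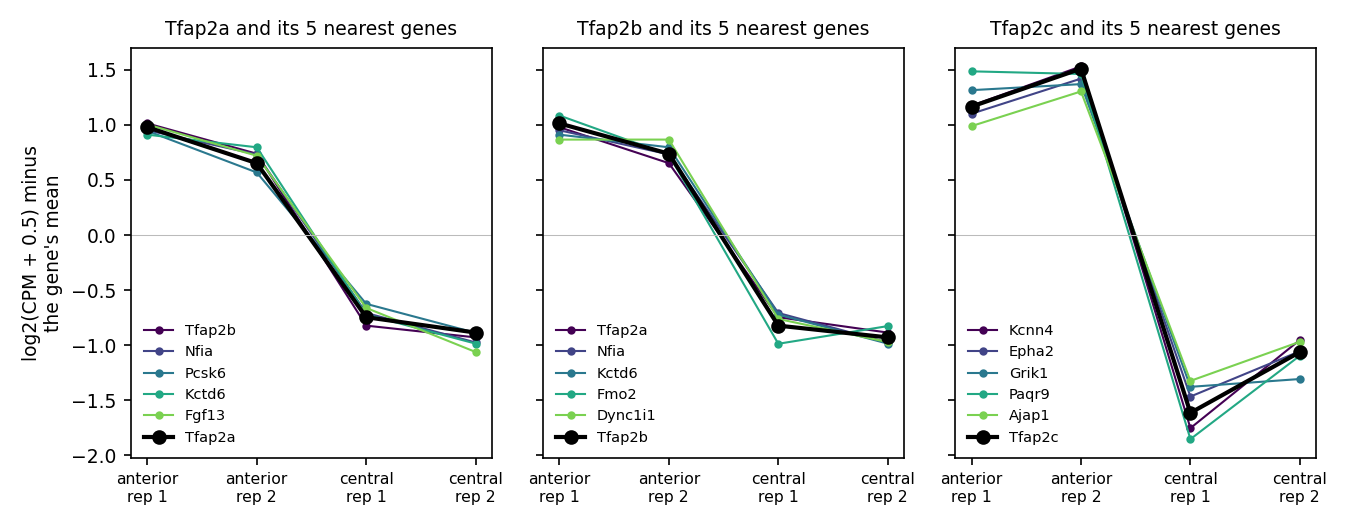
Values of Tfap2a, Tfap2b and Tfap2c (black) and of the 5 genes nearest to each (colours), as log2(CPM + 0.5) minus the mean of the gene, in the 4 libraries; lines only join the values of a gene, since libraries have no order. Tfap2a and Tfap2b share Nfia and Kctd6 among their nearest genes, and each is the nearest gene of the other.

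Markers of other cell types were read beside these values, because AP-2 genes are also expressed outside the mesenchyme. Of all tested genes, 10.7% were called higher and 12.3% lower in anterior cells. Limb mesenchyme markers were abundant in both populations, with a summed level of 2696 to 2739 CPM in anterior and 2278 to 2429 CPM in central cells. Prrx1, a defining limb mesenchyme factor, measured 696 ± 28.8 and 661 ± 28.2 CPM (SD, n = 2 each, adjusted p = 0.473, edgeR), and of the 8 listed markers 4 were called higher and 1 lower (2 lower without central replicate 1). Those called higher were Msx1 (9.56-fold), Prrx2 (3.75-fold), Fgf10 (2.53-fold) and Twist1 (1.77-fold), and Pdgfra was called lower (0.443-fold). The hindlimb factors Pitx1 and Tbx4, not called, were present at 442 and 231 CPM in anterior cells and at 456 and 254 CPM in central cells.

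Surface ectoderm markers went the opposite way to the AP-2 genes. Of 16 listed markers, 14 were called lower in anterior cells and none was called higher, where 12.3% and 10.7% of all tested genes were. Their median log2 fold change was -4.45. With limma-voom 6 were called lower. Their summed level was 11.7 CPM in each anterior library, and 62.7 and 202 CPM in the central ones. Trp63, the master regulator of stratified epithelium, had 4 and 4 counts in anterior cells against 134 and 753 in central cells. Krt5, a basal keratin gene, had 8 and 4 counts against 301 and 1346. Other markers of the list kept more counts in anterior cells, with 90 and 78 of Epcam, 118 and 129 of Krt18 and 94 and 74 of Krt8, genes of simple epithelium. Central replicate 2 held more ectoderm marker RNA than central replicate 1 and also more Tfap2c, though not more Tfap2a or Tfap2b. The part of ectoderm in the AP-2 values was not tested. Without central replicate 2 the log2 fold change of Tfap2c was 3.05 and without central replicate 1 it was 2.46.

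Apical ectodermal ridge genes showed 5 lower and 1 higher call among 8 tested of 10 (3 lower with limma-voom), where 12.3% and 10.7% of all tested genes were called. The summed level of the ridge genes was 30.1 to 34.3 CPM in anterior and 43.8 to 91.9 CPM in central cells. The ridge signal gene Fgf8 had 8 and 2 counts in anterior cells and 177 and 946 in central cells. The single higher call was Dlx5, at 24.7 ± 1.64 against 4.79 ± 0.17 CPM (SD, n = 2 each), a homeobox gene that limb mesenchyme also expresses. Dlx5 alone held 25.9 and 23.6 CPM of the anterior sums, and 4.68 and 4.91 CPM of the central sums.

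Neural crest derivatives use AP-2 factors as well. Of 11 Schwann precursor and melanoblast markers, 8 were tested, 1 was called higher and 2 lower, where 10.7% and 12.3% of all tested genes were. Without anterior replicate 2, or without central replicate 1, 2 were called higher. The summed level was 45.0 to 63.9 CPM in anterior and 34.4 to 46.0 CPM in central cells. The defining crest factors Sox10 and Foxd3 were at 0 in both anterior libraries, against 70 and 18 counts of Sox10 and 8 and 4 counts of Foxd3 in the central ones. The neurotrophin receptor gene Ngfr was the member called higher, at 40.4 ± 10.4 against 12.4 ± 4.42 CPM (SD, n = 2 each, edgeR log2 fold change 1.71 ± 0.24 SE, adjusted p = 0.00143). Ngfr alone made up most of the summed level in each anterior library. The summed level of the other listed markers was lower in both anterior libraries than in both central ones. The melanoblast enzyme gene Dct had 35 and 23 counts against 8 and 0 and was not called (adjusted p = 0.0713, edgeR).

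Myogenic markers were called lower in 6 of 6 genes, with a summed level of 2.35 to 4.17 CPM in anterior and 141 to 142 CPM in central cells, and Myog, the gene of a muscle differentiation factor, was at 0 in both anterior libraries. Endothelial markers were called lower in 5 of 6, with sums of 4.95 to 8.83 and 24.6 to 35.1 CPM. Beside both lists, 12.3% of all tested genes were called lower. Erythroid markers were called higher in 6 of 6 and macrophage markers in 4 of 6, where 10.7% of all tested genes were. The erythroid sum was 3287 and 8382 CPM in anterior cells, against 5.0 and 7.91 CPM in central cells, and the macrophage sum was 14.2 to 17.7 against 4.94 to 5.65 CPM. Between the anterior libraries, the erythroid sum was higher in replicate 2, where Tfap2a and Tfap2b were lower and Tfap2c was higher. The part of these cells in the AP-2 values was not tested.

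**Figure D3:**
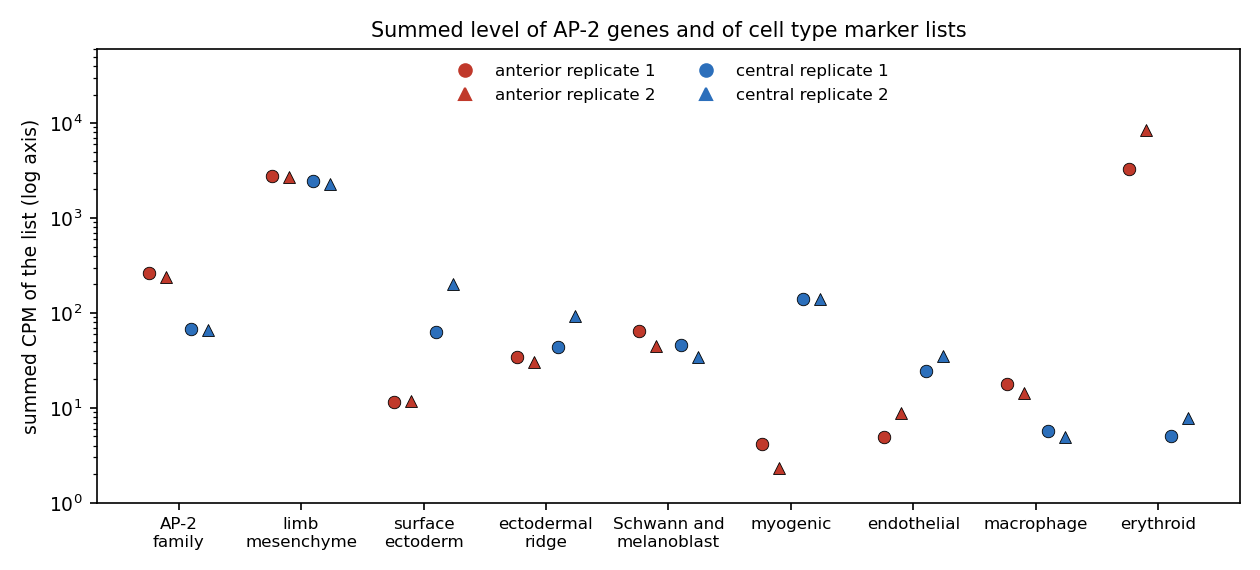
Summed CPM of the AP-2 family and of the marker lists in each library, on a log axis; each point is a library. The AP-2 family and the erythroid and macrophage lists are higher in anterior libraries, the surface ectoderm, myogenic and endothelial lists are lower, and the limb mesenchyme list lies at 2278 to 2739 CPM in all 4 libraries.

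Cofactors and modifiers of AP-2 proteins changed in both directions. Of 8 listed genes, all tested, 3 were called higher and 1 lower in anterior cells, where 10.7% and 12.3% of tested genes were, and their median log2 fold change was 0.22. Without central replicate 2, 5 were called higher. The CITED proteins link AP-2 factors to the acetyltransferases CBP and p300. Cited2 was higher, at 189 and 198 CPM in anterior and 135 and 137 in central cells (edgeR log2 fold change 0.51 ± 0.06 SE, adjusted p = 0.000727). Cited4 had 242 and 548 counts in anterior cells and 9 and 32 in central cells, a log2 fold change of 4.32 ± 0.58 (SE, adjusted p = 0.00108, edgeR). Its replicates lay further apart than those of the other CITED genes. Cited1 was lower, at 6.45 and 6.99 against 11.1 and 13.7 CPM (edgeR log2 fold change -0.89 ± 0.19 SE, adjusted p = 0.00982). Crebbp and Ep300, encoding CBP and p300, had log2 fold changes of 0.23 and 0.20 and were not called (adjusted p = 0.0709 and 0.144, edgeR).

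Of the BTB-domain repressors of AP-2 activity, Kctd15 was higher, at 147 ± 4.06 against 117 ± 6.50 CPM (SD, n = 2 each, edgeR log2 fold change 0.33, adjusted p = 0.00972), and Kctd1 had a log2 fold change of -0.15 and was not called (adjusted p = 0.295, edgeR). Wwox, whose product binds AP-2 gamma, was not called (adjusted p = 0.306, edgeR).

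Genes reported elsewhere as AP-2 targets, in skin, neural crest, face or tumour cells, were called in both directions. Of 13 listed genes, all tested, 2 were called higher and 6 lower, where 10.7% and 12.3% of tested genes were, and their median log2 fold change was -0.63. Those called higher were patterning genes of the face and limb. Msx1, also in the mesenchyme list, measured 238 and 253 CPM in anterior and 29.2 and 22.3 CPM in central cells (edgeR log2 fold change 3.26 ± 0.12 SE, adjusted p = 1.06e-06). Alx1 had 70 and 117 counts against 24 and 20 (edgeR log2 fold change 2.12 ± 0.46 SE, adjusted p = 0.0117). Alx4 leaned the other way, at 29.3 ± 11.8 against 45.3 ± 12.7 CPM (SD, n = 2 each). It overlapped between the groups and was not called (edgeR log2 fold change -0.63 ± 0.26 SE, adjusted p = 0.119).

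The targets called lower included genes of epithelium and of growth control. Krt14 and Cdh1, which are ectoderm markers too, had 2 and 4 counts and 8 and 0 counts in anterior cells, against 60 and 202 and 110 and 504 in central cells. Igfbp5, encoding a binding protein of insulin-like growth factors, measured 8.64 and 4.09 CPM in anterior and 327 and 334 CPM in central cells (edgeR log2 fold change -5.68 ± 0.23 SE, adjusted p = 1.90e-06). Cdkn1a, the gene of the cell cycle inhibitor p21, measured 1.86 and 1.36 against 15.4 and 22.3 CPM (edgeR log2 fold change -3.54 ± 0.26 SE, adjusted p = 3.39e-05). Egfr and Mcam were lower as well, with log2 fold changes of -2.70 and -2.54. Erbb2, a classical AP-2 target of breast tumour cells, measured 77.5 ± 0.98 and 78.3 ± 5.85 CPM (SD, n = 2 each, adjusted p = 0.923, edgeR). Kit, Mmp2 and Mitf were not called either, and each overlapped between the groups.

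**Figure D4:**
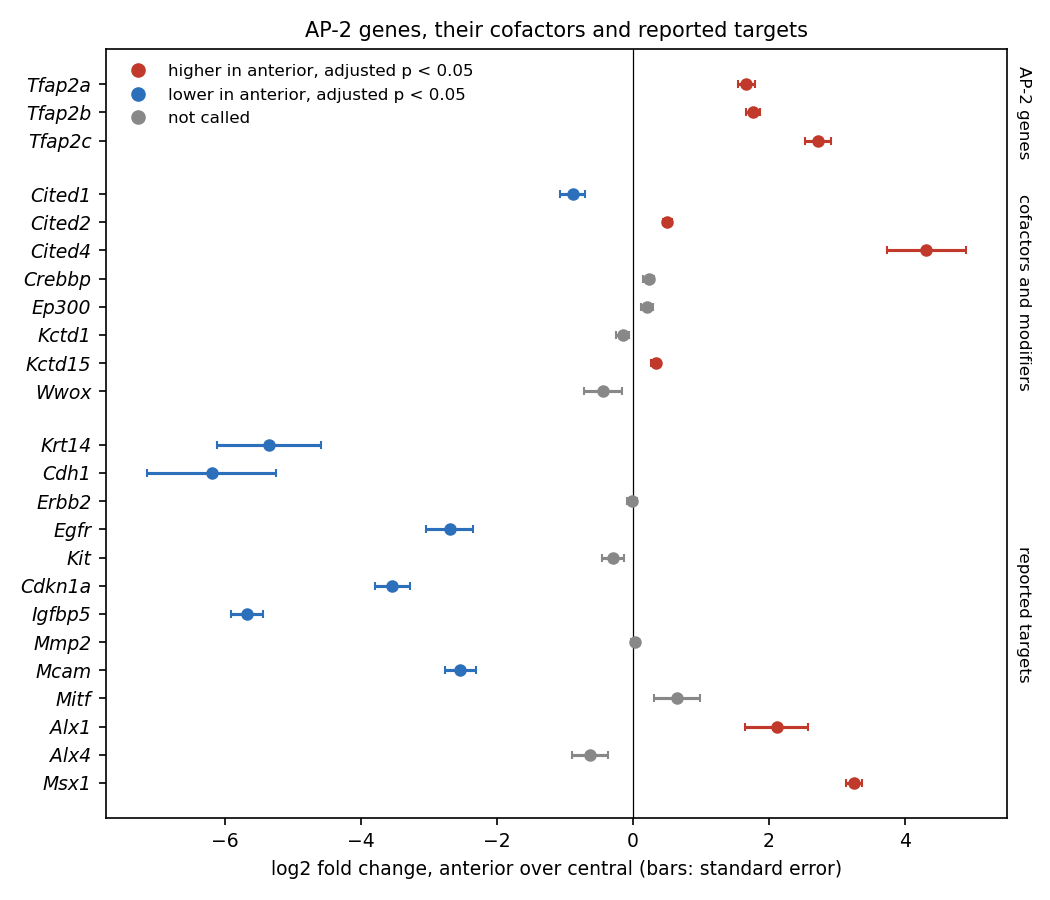
Log2 fold change, anterior over central, of the tested AP-2 genes, of their cofactors and modifiers and of reported targets; bars are standard errors and colours give the call by edgeR. The 3 AP-2 genes lie to the right of 0, while both other lists hold genes on either side.

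Of 8 protein-coding neighbours outside the family, 4 were tested and 1, Bmp7, was called, a share near the 22.9% over all tested genes. Around Tfap2c, Fam209 had 4 to 12 counts in each library and was not tested, and Bmp7 (309389 bases away), encoding a bone morphogenetic protein, was higher in anterior cells by a log2 fold change of 0.51 ± 0.07 (SE, adjusted p = 0.00139, edgeR). Gcnt2 (121377 bases from Tfap2a) measured 5.54 ± 0.51 and 5.55 ± 0.32 CPM (SD, n = 2 each, adjusted p = 0.997, edgeR), and Ofcc1 on the other side was listed at 0 in every library. Pkhd1, on the far side of Tfap2b, had 2 to 8 counts and was not tested. Defb41, next to Tfap2d, was listed at 0 in every library, and Psmb2 and Ncdn, on either side of Tfap2e, were not called (adjusted p = 0.0611 and 0.967, edgeR). Tfap2d, adjacent to Tfap2b on its other side, was the neighbour with no counts described above.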

How the data were processed

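The authors deposited whole-number read counts per gene symbol for 4 paired-end libraries, not normalized. Per the submitters' processing notes, STAR 2.7.9a, HTSeq, DESeq2 and the build mm10 were used, with no roles given; strandedness and annotation are not given in the sources used here. Even numbers made up 72.8% to 75.7% of counts from 1 to 10, so both mates of a pair may have been counted. Columns were matched to samples by domain name and number.

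Genes were filtered with filterByExpr, scaled by TMM and tested with edgeR 4.0.16 in R 4.3.3 (quasi-likelihood F test, group only, 2 residual degrees of freedom, Benjamini-Hochberg adjustment over all 14610 tested genes, threshold 0.05). The standard error is the absolute log2 fold change divided by the square root of F. In simulated counts of 14610 genes for this comparison, 174 genes were called, and 169 of 200 changed genes were recovered. The changed genes were drawn from those above 1 CPM and given set fold changes. The share recovered is therefore not the power for genes of lower level or smaller change. Replicates of a group differed by more than sampling noise (chi-square per degree of freedom 15.1 and 8.46 on halved counts).

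Exon lengths are unions of GENCODE M21 exons. The 5 family members, 10 gene lists (86 genes) and the tests were chosen with earlier results of these data known, so lists are described by counts and medians. Some genes first placed on the lists are not reported here. Named genes are the members, listed genes, the 5 genes nearest in pattern to each member of at least 1 CPM, and protein-coding neighbours. The 13 alternatives were other scalings (DESeq2 1.42.0 size factors, library size, upper quartile), the DESeq2 Wald test, limma-voom (limma 3.58.1), other filters, halved counts, a replicate block and leaving out each library.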

Additional observations from a re-analysis of the deposited data

How the results depend on the processing

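Tfap2a, Tfap2b and Tfap2c stayed higher in anterior cells and past the threshold in all 13 alternatives, with log2 fold changes of 1.496 to 1.827, 1.63 to 1.91 and 2.46 to 3.05 and largest adjusted p-values of 0.000116, 2.9e-05 and 6.27e-05. Leaving out each library in turn, where the lone library of a group is assumed to vary like the other group, gave 2009 to 3697 called genes, with 2009 without anterior replicate 2. The ectoderm list fell from 14 to 6 calls with limma-voom, and the cause was not tested. The macrophage list had 1 call with a mean count of at least 50, where 1 of its genes was tested. Every other total of calls, over all genes or per list, stayed within 1.5 times. By direction, more counts moved by over 1.5 times. Genes called higher numbered 1032 and 809 without anterior replicates 1 and 2. Cofactors called higher went from 3 to 5 without central replicate 2, and mesenchyme markers called lower from 1 to 2 without central replicate 1. Ridge genes called lower went from 5 to 3 with limma-voom or a mean count of at least 50. Schwann and melanoblast markers called higher went from 1 to 2 with limma-voom, no filter, halved counts, the replicate block, or without anterior replicate 2 or central replicate 1, and those called lower from 2 to 1 with halved counts or a mean count of at least 50. Without a filter Tfap2e had a log2 fold change of -1.91 (SE 1.51, adjusted p = 0.459 by edgeR). Tfap2d could not be fitted in any setting.

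A replicate block gave 3586 called genes, and Tfap2a, Tfap2b and Tfap2c had log2 fold changes of 1.66, 1.76 and 2.74. Their standard errors with the block were 0.109, 0.085 and 0.119, against 0.128, 0.103 and 0.189 without it. The deviations of same-numbered libraries from their group means correlated at 0.064 across genes. Genes are not independent replicates, so this value cannot decide whether the numbers pair the libraries. The labels do not say, and the main fit took no pairing. The counts of Tfap2d (0 in all 4 libraries) and of Tfap2e (2 to 10) are too few for a comparison at this depth.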
